A study of Mus musculus with 2 samples.

Results

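The Hox genes are described here in the brainstem nuclei of 1 WT and 1 HET mouse. Members were all genes whose symbols name a *Hoxa*, *Hoxb*, *Hoxc* or *Hoxd* gene with a paralogue number, which gave 26 of the 25556 genes counted. GENCODE vM21 lists 39 such genes on the mm10 build, and the other 13 were not analysed here. The WT mouse, from a litter of the same breeding, carried intact *Scn1a*, which encodes a voltage-gated sodium channel alpha subunit. The HET mouse held 1 knock-in copy of the missense allele A1783V (*Scn1a* A1783V/WT), made by crossing a floxed male with a Sox2-Cre female, a driver active in the early embryo, and serves as a model of Dravet Syndrome. Both were untreated C57Bl6 females at P41. Nuclei from dissected, frozen brainstem were profiled by snRNA-seq, which counts each captured RNA molecule once through its unique molecular identifier (UMI). Each genotype had 1 library, so WT and HET could not be tested against each other, and genotype, animal, dissection and library cannot be told apart.

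Hox genes encode homeodomain transcription factors that lie in 4 clusters, and the order of the genes along a cluster matches the order of their expression limits from head to tail. Genes at the same place in different clusters form a paralogue group. Low paralogue groups have front limits inside the embryonic hindbrain, middle groups near the border of medulla and spinal cord, and high groups within the cord, while midbrain and forebrain lack Hox expression. Part of this pattern persists in adult neurons, and it is often read as a position code along the rostrocaudal axis.

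The 26 members comprised 7 genes of the *Hoxa* cluster on chromosome 6, 9 of *Hoxb* on chromosome 11 (96271457 to 96368256), 4 of *Hoxc* on chromosome 15 (102967443 to 103036852) and 6 of *Hoxd* on chromosome 2 (74668310 to 74765142). The *Hoxd* cluster lies 8.23 Mb from *Scn1a* on the same chromosome. In the annotation, exons of 5 members overlap another gene on the same strand, and 13 members overlap a gene on the opposite strand. Reads of such pairs may be split or shared in the counts. The overlaps on the same strand are *Hoxa2* and *Hoxa3* with *Gm28308*, *Hoxc5* with *Hoxc10*, and *Hoxd3* and *Hoxd4* with each other and with *Gm28230*.

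RefSeq (GRCm38.p6) gave a promoter for 15 of the members. The 250 bases before the start site were searched on both strands for TGATNNAT, a form of the site that Hox proteins bind together with PBX cofactors. Of the 15 promoters 3 held it, whereas 7.7% of all 32851 promoters did. A match is a run of letters and not a measured binding site. The 3 are shown because they are the member promoters in which the Hox and PBX letters stand beside genes measured below, with the match in capitals. They are *Hoxa2* (chr6:52164832-52165081, minus strand), *Hoxb1* (chr11:96365508-96365757, plus strand) and *Hoxb8* (chr11:96281655-96281904, plus strand), each written 5′ to 3′ on the strand of the gene.
Hoxa2: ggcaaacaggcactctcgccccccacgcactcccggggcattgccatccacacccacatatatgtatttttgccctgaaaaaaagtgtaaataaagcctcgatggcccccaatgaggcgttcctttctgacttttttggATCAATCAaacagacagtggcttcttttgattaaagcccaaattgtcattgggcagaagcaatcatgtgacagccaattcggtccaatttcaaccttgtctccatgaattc
Hoxb1: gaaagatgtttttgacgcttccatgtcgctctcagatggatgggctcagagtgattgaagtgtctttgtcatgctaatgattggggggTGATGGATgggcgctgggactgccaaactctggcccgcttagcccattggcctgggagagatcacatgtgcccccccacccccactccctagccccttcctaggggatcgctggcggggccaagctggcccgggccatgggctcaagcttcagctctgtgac
Hoxb8: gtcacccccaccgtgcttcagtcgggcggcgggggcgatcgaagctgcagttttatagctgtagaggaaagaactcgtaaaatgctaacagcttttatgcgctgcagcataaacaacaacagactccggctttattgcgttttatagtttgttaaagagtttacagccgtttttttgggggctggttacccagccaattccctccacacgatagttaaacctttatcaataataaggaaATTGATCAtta
The median number of CpG dinucleotides in these windows was 12 for the 15 Hox promoters and 6 for all promoters.

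The counts held 70301390 UMIs in 9259 WT nuclei and 66176778 UMIs in 9022 HET nuclei. Nuclei of the deposited clusters neuron.1 to neuron.9 are called neuronal, and comprised 6118 WT and 5393 HET nuclei with a median of 7729 and 8390 UMIs. The neuron markers *Rbfox3*, *Snap25*, *Syt1* and *Nefl* summed to 2143 UMIs per 1000000 (CPM) in WT and 2476 in HET neuronal nuclei, against 472 and 572 CPM in the other nuclei. The libraries shared 23 cell barcodes. For *Scn1a* itself, the neuronal level in WT and HET was 430 and 493 CPM, and a missense allele need not lower its RNA. Levels below are CPM within a set of nuclei, not scaled by gene length, and are set against each other between libraries or nuclei and not between genes. Differences are given as the log2 of the HET level over the WT level, and a negative sign means less RNA in HET. Their intervals are exact at 95%, cover counting error only, and leave out the spread between animals.

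Hox RNA in both libraries came from low and middle paralogue groups, and almost none came from high groups. It was lower in HET across nearly all members, and summed groups 5-8 differed more than summed groups 1-4. In neuronal nuclei, groups 1-4 summed to 8627 UMIs in WT and 4676 in HET, or 146 CPM (142 to 149) and 87.8 CPM (85.3 to 90.3). Groups 5-8 summed to 3039 and 1070 UMIs, or 51.3 CPM (49.5 to 53.1) and 20.1 CPM (18.9 to 21.3). Groups 9-13 gave 19 UMIs in WT and 3 in HET. The log2 ratio was −0.73 (−0.78 to −0.68) for groups 1-4, −1.35 (−1.45 to −1.25) for groups 5-8 and −2.51 (−4.91 to −0.74) for groups 9-13. The first 2 intervals do not overlap, while the last is wide and includes that of groups 5-8.

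Of the 26 members, 21 had at least 20 UMIs over both libraries in neuronal nuclei and could be compared singly. HET was lower for 20 of these 21, and the counting interval lay below 0 for 19. The difference passed 1.5-fold for 16 of 21 (76.2%), whereas 14.3% of the 21155 genes with as many UMIs were lower by that much and 11.2% were higher. The median log2 ratio was −1.13 over the 21 members and −0.08 over all genes. Short genes were more often lower than higher in HET. Among the 3274 genes that span under 5000 bases, 32.8% were lower by 1.5-fold and 18.1% were higher, with a median of −0.32. Of the 21 members, 12 are that short. Among genes with no more UMIs than the most counted Hox gene, 17.1% were lower by 1.5-fold and 14.7% were higher. Among genes with a span in the Hox range, 2083 to 49987 bases, these shares were 16.8% and 11.3%. The part of gene length in the Hox values was not tested beyond these shares, and across the 21 members span and log2 ratio had a Spearman correlation of 0.20.

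**Figure D1:**
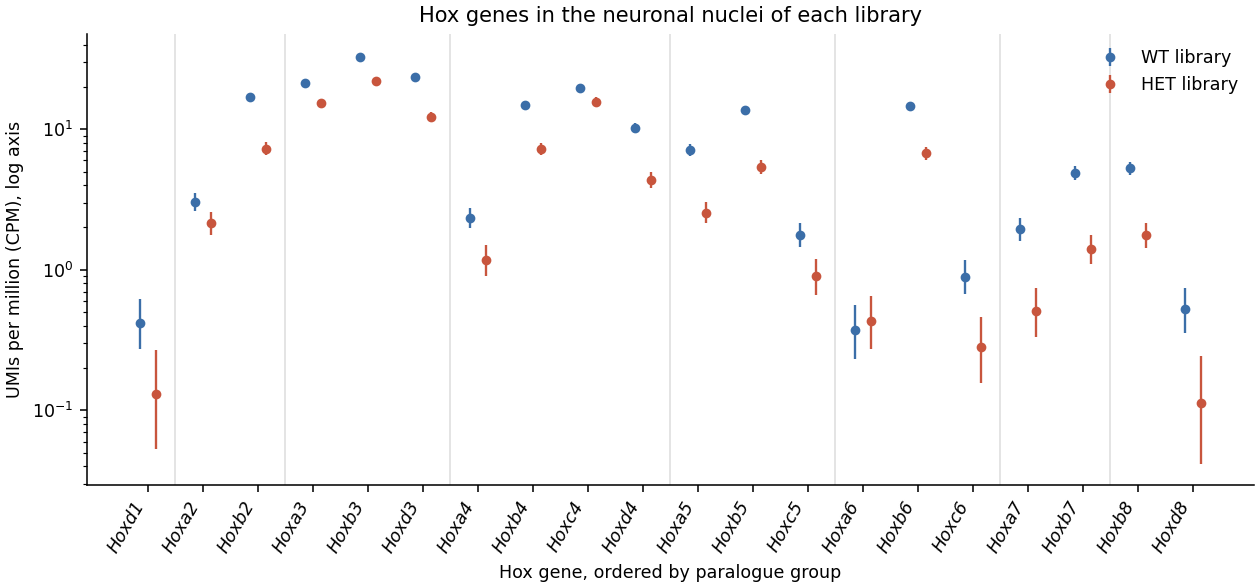
Levels of 20 of the 21 Hox genes with at least 20 UMIs in neuronal nuclei, in CPM on a log axis, for the WT (blue) and HET (red) library, with exact Poisson intervals at 95% for counting error. Genes are ordered by paralogue group, grey lines part the groups, and HET lies below WT for 19 of the 20 shown, *Hoxa6* being the exception.

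Group 1 genes, the earliest to be expressed in the embryonic hindbrain, gave few UMIs. *Hoxd1* had 25 UMIs in WT and 7 in HET, a log2 ratio of −1.68 (−3.14 to −0.43). Its highest level was in deposited subcluster 22, described below, which held 121 WT but only 5 HET nuclei. The part of that subcluster in the ratio of *Hoxd1* was not tested. *Hoxb1* had 1 and 2 UMIs, too few for a ratio.

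Group 2 genes pattern the rostral rhombomeres, and *Hoxa2* reaches furthest forward of all Hox genes. *Hoxa2* gave 181 UMIs in WT and 114 in HET, a log2 ratio of −0.51 (−0.86 to −0.17). *Hoxb2* gave 1003 and 388 UMIs, a ratio of −1.22 (−1.39 to −1.05). The intervals of these paralogues did not overlap, but they cover counting error only and leave out the spread between animals. Exons of *Hoxa2* also overlap *Gm28308* on the same strand.

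Group 3 held the most UMIs of any group, 4598 in WT and 2635 in HET. Levels in WT and HET were 32.8 and 21.9 CPM for *Hoxb3*, 21.3 and 15.3 CPM for *Hoxa3*, and 23.5 and 12.2 CPM for *Hoxd3*. Their log2 ratios were −0.58 (−0.68 to −0.47), −0.48 (−0.61 to −0.35) and −0.94 (−1.08 to −0.81). The interval of *Hoxd3* lay below those of its paralogues, and its exons overlap those of *Hoxd4*.

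Group 4 genes mark the caudal hindbrain. *Hoxc4* gave 1171 UMIs in WT and 838 in HET and had the log2 ratio nearest to 0 among the members that were lower, −0.33 (−0.46 to −0.20). *Hoxb4* gave 884 and 386 UMIs (−1.04), *Hoxd4* gave 603 and 233 (−1.22), and *Hoxa4* gave 139 and 63 (−0.99). The intervals of these 3 all lay below that of *Hoxc4*.

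Groups 5 and 6 have limits near the border of medulla and cord. *Hoxb5* gave 815 UMIs in WT and 287 in HET, a log2 ratio of −1.35 (−1.55 to −1.16), and *Hoxa5*, which acts in phrenic motor neurons, gave 420 and 136 (−1.47, −1.76 to −1.19). *Hoxc5* gave 105 and 48 UMIs (−0.98). *Hoxb6* gave 872 and 359 UMIs (−1.13, −1.31 to −0.95), and *Hoxc6*, which marks brachial cord levels, gave 53 and 15 (−1.67). *Hoxa6* was the only member with a value above 0, from 22 UMIs in WT and 23 in HET, and its interval ran from −0.69 to 1.13.

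Groups 7 and 8 reach least far forward among the members with usable counts. Levels were 4.87 CPM in WT and 1.41 CPM in HET for *Hoxb7*, and 1.94 and 0.507 CPM for *Hoxa7*, with log2 ratios of −1.79 (−2.18 to −1.42) and −1.94 (−2.60 to −1.32). *Hoxb8* gave 312 and 94 UMIs (−1.58, −1.93 to −1.24), and *Hoxd8* gave 31 and 6 (−2.22, −3.77 to −0.93). *Hoxc8* gave 5 and 0 UMIs. Across the 4 genes with a ratio, HET was 2.98-fold to 4.64-fold lower.

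Groups 9-13, which pattern thoracic to sacral levels and limbs, were close to absent. *Hoxb9* gave 14 UMIs in WT and 0 in HET. With a floor of 3 counts over the neuronal nuclei of the library in place of 0, HET was 4.19-fold lower. The counting interval of its log2 ratio had its upper end at −1.58. *Hoxd9* gave 1 and 0 UMIs, and *Hoxd13* gave 4 and 3. In all, 0.29% of WT and 0.06% of HET neuronal nuclei held a UMI of these 3 genes.

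**Figure D2:**
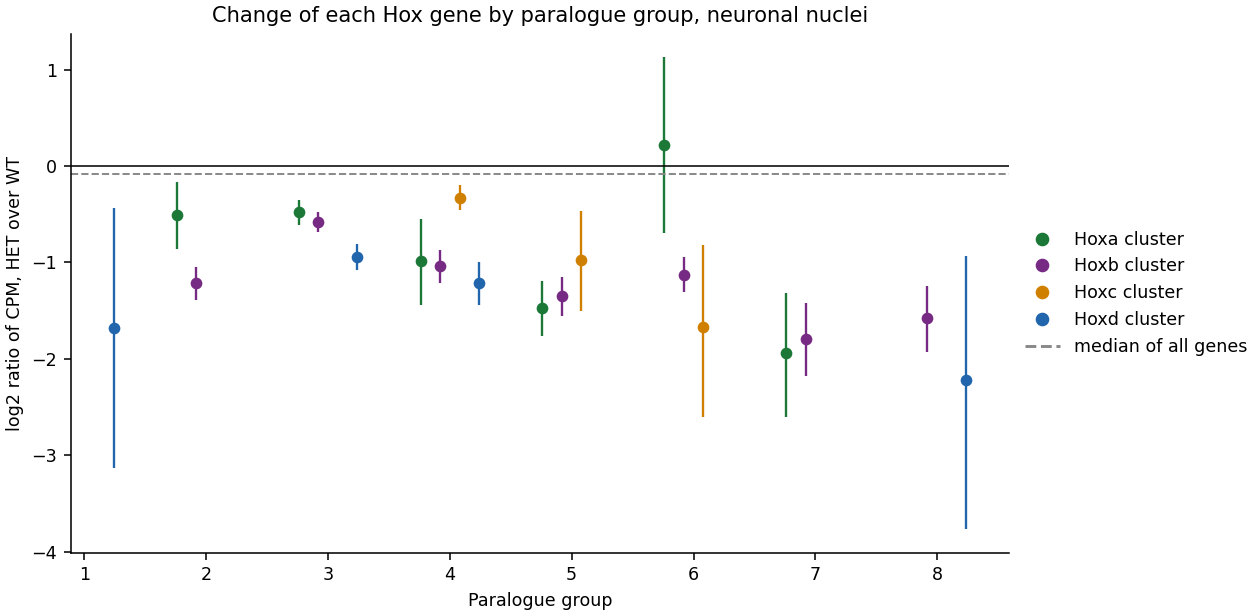
Log2 ratio of HET to WT level for 20 of the 21 Hox genes in neuronal nuclei against paralogue group, coloured by cluster, with exact intervals at 95% for counting error. The dashed line is the all-gene median, −0.08, and all points of groups 7 and 8 lie between −1.58 and −2.22.

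The summed log2 ratio did not fall stepwise with paralogue number. It was −1.08 for group 2, −0.65 for group 3, −0.73 for group 4, −1.35 for group 5, −1.10 for group 6, −1.83 for group 7 and −1.64 for group 8. Over the 21 genes, which share 2 libraries, the Spearman correlation of paralogue number with log2 ratio was −0.49. Groups 1-4 had 7 of 11 genes past 1.5-fold lower with a median of −0.98, and groups 5-8 had 9 of 10 with a median of −1.52. By cluster, the summed log2 ratio was −0.71 for *Hoxa*, −1.0 for *Hoxb*, −0.41 for *Hoxc* and −1.04 for *Hoxd*, so all 4 clusters, on 4 chromosomes, were lower in HET. The correlation within a cluster was also negative in each, at −0.32 over 7 *Hoxa*, −0.68 over 7 *Hoxb*, −1.0 over 3 *Hoxc* and −0.40 over 4 *Hoxd* genes.

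More WT than HET nuclei held a Hox UMI. Of the neuronal nuclei, 61.2% in WT (60.0% to 62.4%) and 44.3% in HET (42.9% to 45.6%) held a UMI of groups 1-4. For groups 5-8 the shares were 29.1% and 14.4%. With each nucleus thinned to 1000 UMIs the shares became 15.1% and 8.74% for groups 1-4, and 6.01% and 2.39% for groups 5-8, so WT stood above HET at equal depth as well. Microglia arise outside the neural tube and should lack Hox RNA. In the 41 WT and 67 HET nuclei that both deposited labels call microglia, at a median of 1904 and 1946 UMIs, 14.6% and 11.9% held a UMI of groups 1-4, and 4.88% and 2.99% one of groups 5-8. Thinned, these were 8.77% and 5.43% for groups 1-4, and 1.69% and 1.52% for groups 5-8, from 2 to 8 nuclei each. At that depth the neuronal share was above the microglial one for both bands in both libraries. At 2000 UMIs, which left out 22 of the 41 WT and 38 of the 67 HET microglial nuclei and 81 WT and 53 HET neuronal nuclei, the neuronal shares of groups 1-4 were 26.8% in WT and 16.1% in HET against microglial shares of 18.2% and 17.3%, so in HET the neuronal share was not above the microglial one. By level, these microglia held 134 CPM of groups 1-4 in WT from 11 UMIs and 55.8 CPM in HET from 8 UMIs. Set against these few microglia, the neuronal values of groups 1-4 therefore have no clear background below them. The deposited cluster neuron.5, granule-like by its markers, held 57.2 CPM of groups 1-4 in WT from 9 UMIs and 32.1 CPM in HET from 41 UMIs. Thinned to 1000 UMIs, 6.04% of its 42 WT and 2.99% of its 332 HET nuclei held groups 1-4, below the shares of all neuronal nuclei. The part of free RNA in the neuronal values was not tested.

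The highest paralogue number seen in a nucleus moved down as well. No Hox UMI was seen in 32.2% of WT and 51.3% of HET neuronal nuclei. The highest group seen was 3 or 4 in 1071 and 1020 WT nuclei and in 868 and 796 HET nuclei, and it was 7 in 282 against 83 and 8 in 310 against 93 nuclei. Of the nuclei with a UMI of groups 5-8, 77.7% in WT and 69.2% in HET also held groups 1-4, against 54.4% and 40.1% of the nuclei without one. Thinned to 1000 UMIs these shares were 23.3% against 14.6% in WT and 16.5% against 8.55% in HET. Groups 1-4 were thus seen more often in nuclei with groups 5-8 than in those without.

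The deposited annotation numbers subclusters within the neuronal nuclei, and the 18 with at least 30 nuclei in a library are described, which leave out 11 WT and 7 HET nuclei. Of these, 14 held at least 30 nuclei in each library. Subcluster 21 was not 1 deposited cluster: its 55 WT nuclei were 35 of neuron.9, 17 of neuron.1 and 3 of neuron.5, and its 69 HET nuclei were 46 of neuron.5, 21 of neuron.1 and 2 of neuron.9. Its WT and HET values thus come from different mixtures of clusters. Hox levels differed by an order of magnitude between subclusters, and the order of the subclusters was alike in the libraries. Across the 14, the Spearman correlation of the WT with the HET level was 0.94 for groups 1-4 and 0.88 for groups 5-8. The clusters were made from these same nuclei and genes, so these levels are a description.

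In WT, groups 1-4 were highest in subclusters 9, 12 and 14, at 259, 253 and 231 CPM, and lowest in subclusters 31, 13 and 30, at 18.5, 36.4 and 57.1 CPM. In HET, the highest were subclusters 9, 24 and 12, at 205, 200 and 185 CPM, and the lowest were 27, 13 and 30, at 20.4, 24.5 and 30.9 CPM. Subclusters 12 and 14 belong to the deposited cluster neuron.2, subclusters 9 and 24 to neuron.1, and 13 and 27 to neuron.3. Subcluster 30 is neuron.7, which is serotonergic-like: *Tph2*, *Slc6a4*, *Fev* and *Slc18a2* summed to 2334 CPM in WT and 3172 CPM in HET there.

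Groups 5-8 gave a similar order. They were highest in WT in subclusters 12, 21 and 9, at 190, 148 and 132 CPM, and in HET in subclusters 12, 14 and 9, at 140, 84.3 and 73.7 CPM. They were lowest in WT in subclusters 31, 15 and 22, at 2.31, 7.61 and 9.54 CPM, and in HET in 27, 30 and 13, at 2.45, 2.58 and 3.45 CPM. *Hoxb6* had its highest level of any subcluster in subcluster 12, at 70.4 CPM in WT and 76.3 CPM in HET, the only subcluster among the 9 with at least 20 of its UMIs in which it was not lower in HET.

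**Figure D3:**
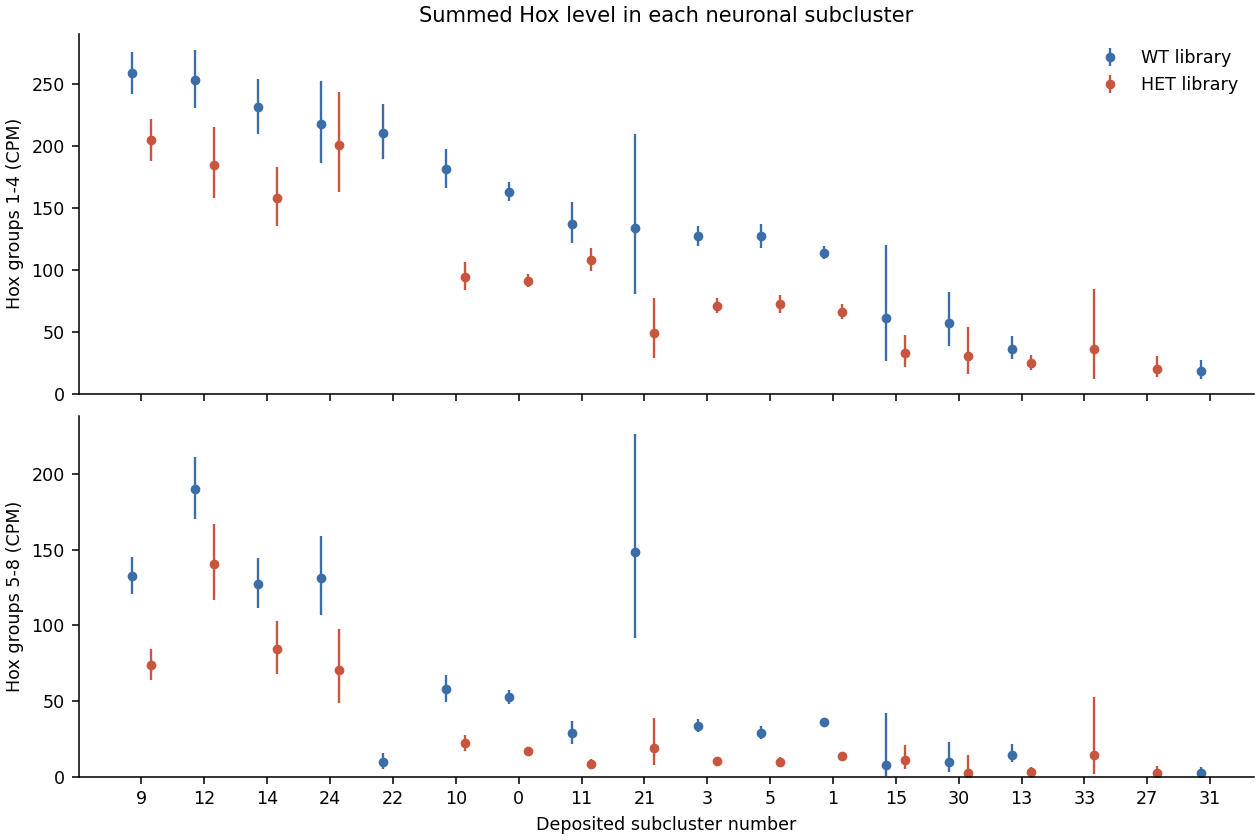
Summed CPM of Hox groups 1-4 (top) and 5-8 (bottom) in each deposited neuronal subcluster, for the WT (blue) and HET (red) library, ordered by the WT level of groups 1-4, with exact Poisson intervals at 95%. A library with under 30 nuclei in a subcluster has no point, and subclusters 9, 12, 14 and 24 stand highest in both panels in both libraries, apart from the WT value of subcluster 21 for groups 5-8.

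Subcluster 22 carried a Hox pattern of its own. It is nearly all of the deposited cluster neuron.6 and held 121 WT but only 5 HET nuclei, so it has no HET value. *Hoxd3* stood at 88.3 CPM (74.6 to 104), *Hoxb3* at 65.0 CPM and *Hoxd1* at 8.35 CPM there, the highest level of *Hoxd3* and *Hoxd1* in any subcluster, while *Hoxa3* stood at 7.16 CPM and *Hoxc4* at 1.19 CPM. Groups 5-8 made up 4.34% of its 369 UMIs of groups 1-8. With only the subclusters that held at least 30 nuclei in each library, which leaves subcluster 22 out, 20 members had at least 20 UMIs. Of these, 19 were lower in HET and 15 were lower by 1.5-fold. Subcluster 11, which is neuron.4, held the highest level of *Hoxc4* among the subclusters, at 37.0 and 30.3 CPM in WT and HET, and *Hoxb8* was at 0 UMIs there in both libraries.

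**Figure D4:**
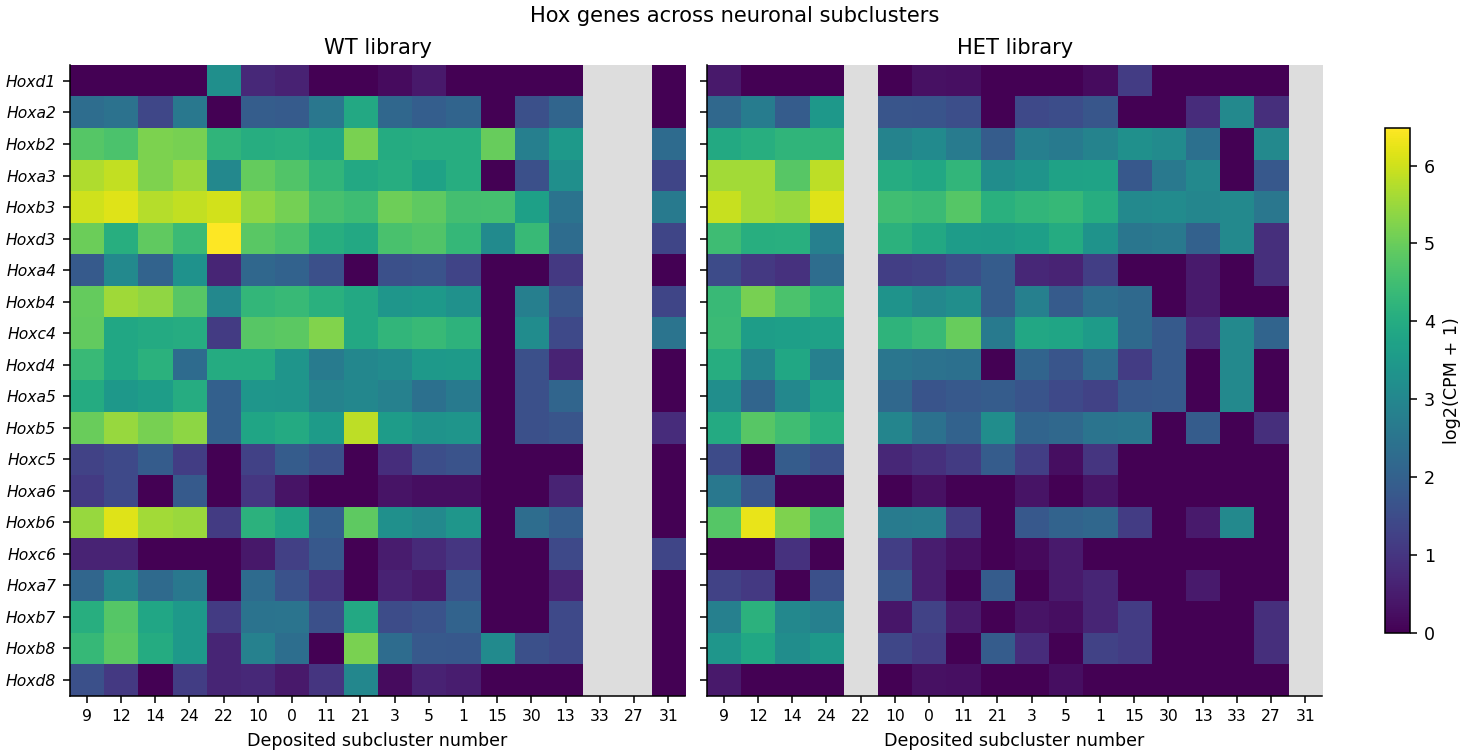
Level of each of 20 Hox genes, as log2(CPM + 1), in every deposited neuronal subcluster of the WT (left) and HET (right) library, with genes ordered by paralogue group from top to bottom. Grey columns had under 30 nuclei in that library, and *Hoxd3* and *Hoxb3* in subcluster 22 of WT, at 88.3 and 65.0 CPM, are among the brightest cells.

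Within subclusters HET was lower almost throughout. Groups 1-4 were lower in all 14 subclusters compared, with a counting interval below 0 in 11 and log2 ratios from −1.46 to −0.12 (median −0.80). Groups 5-8 were lower in 13 of 14, with 12 intervals below 0 and ratios from −2.97 to 0.52 (median −1.50). The lowest ratio of each band was that of subcluster 21, and without it the lowest were −0.94 for groups 1-4, with 10 of 13 intervals below 0, and −2.08 for groups 5-8, with 11 of 13. The exception was subcluster 15, with 1 UMI in 33 WT nuclei and 9 in 249 HET nuclei. The lower Hox level in HET was therefore present inside the deposited subclusters and not only in the sum over them.

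The difference varied between subclusters. In subcluster 0, the one with the most nuclei, levels in WT and HET were 163 and 91.4 CPM for groups 1-4 (−0.83) and 52.5 and 17.1 CPM for groups 5-8 (−1.62). In subcluster 9 the ratios were −0.34 (−0.49 to −0.19) and −0.85 (−1.09 to −0.61). In subcluster 12 they were −0.45 (−0.72 to −0.19) and −0.44 (−0.75 to −0.14). Subclusters 9 and 12 thus had smaller differences than subcluster 0, and their intervals for groups 5-8 did not overlap that of subcluster 0, −1.84 to −1.40. *Hoxa3* and *Hoxb3* in subcluster 9, at 51.1 against 47.2 CPM and 63.8 against 59.7 CPM, had intervals that included 0.

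By gene, *Hoxb2* was lower in HET in all 11 subclusters in which it had at least 20 UMIs, and *Hoxb4* and *Hoxb5* in all 10. *Hoxc4*, *Hoxd4* and *Hoxa5* were each lower in 9 of 9, and *Hoxb8* in 7 of 7. *Hoxa3* was lower in 9 of 11 and *Hoxb3* in 8 of 11. For no gene was a counting interval above 0 in any subcluster.

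The mix of the bands moved with their levels. Groups 5-8 made up 26.1% of the UMIs of groups 1-8 in WT neuronal nuclei (25.3% to 26.9%) and 18.6% in HET (17.6% to 19.7%). The share was lower in HET in 12 of 14 subclusters. It was 24.4% against 15.7% in subcluster 0 and 17.3% against 7.49% in subcluster 11, but 42.9% against 43.1% in subcluster 12 and 35.5% against 34.8% in subcluster 14. In the subclusters of neuron.2, the mix differed by less than its counting error.

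**Figure D5:**
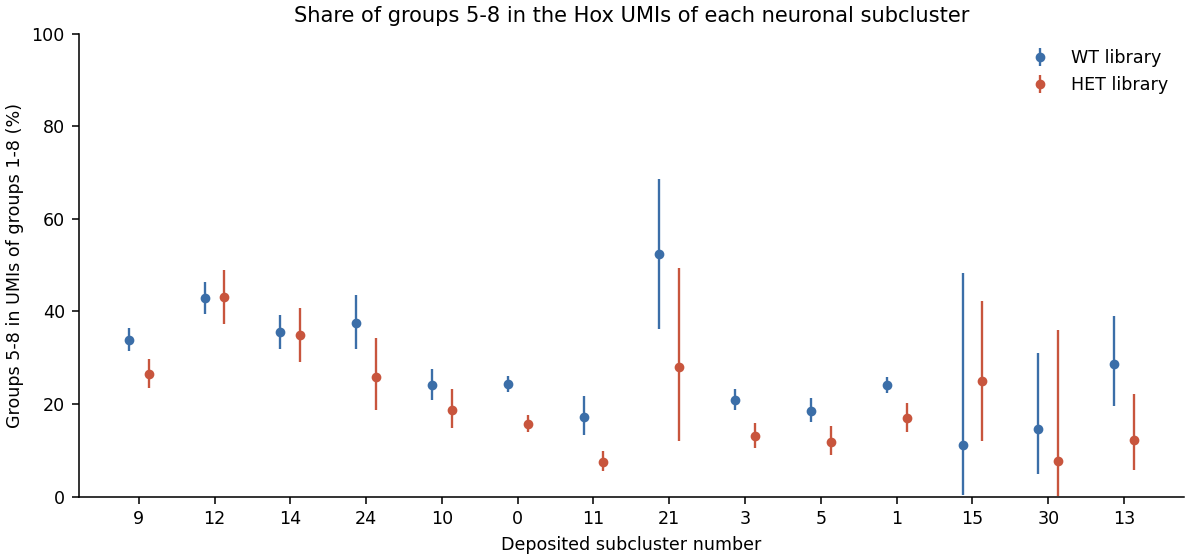
Share of the UMIs of Hox groups 1-8 that came from groups 5-8, in percent, in the 14 neuronal subclusters with at least 30 nuclei in each library, for WT (blue) and HET (red), with exact binomial intervals at 95%. The share is lower in HET in 12 of the 14, and the points of subclusters 12 and 14 nearly coincide.

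Hox RNA was also counted in glial and vascular nuclei, where RNA of their own and free RNA from neurons were not told apart. In the non-neuronal nuclei, levels in WT and HET were 72.9 and 47.5 CPM for groups 1-4 and 28.7 and 11.8 CPM for groups 5-8, with log2 ratios of −0.62 (−0.77 to −0.46) and −1.28 (−1.57 to −1.0). Of 16 members with at least 20 UMIs there, 16 were lower in HET and 12 by 1.5-fold, whereas 21.1% of 17827 genes were lower by that much and 8.73% were higher. *Hoxb8* gave 76 UMIs in WT and 25 in HET (−1.83, −2.55 to −1.16), and *Hoxa5* gave 64 and 22 (−1.77, −2.54 to −1.05). Astrocytes held 141 CPM of groups 1-4 in WT and 93.4 CPM in HET, close to neurons, and 42.6 and 13.1 CPM of groups 5-8 (−1.70, −2.32 to −1.12). Oligodendrocytes held 52.2 and 36.3 CPM (−0.53) and 22.2 and 12.6 CPM (−0.83, −1.22 to −0.44). The deposited cluster micro (174 WT and 231 HET nuclei) held 57.0 and 26.1 CPM of groups 1-4 (−1.13, −1.75 to −0.52). For groups 5-8 it held 22.6 and 6.35 CPM (−1.83, −3.12 to −0.69). Both labels called only 41 WT and 67 HET of these nuclei microglia. The lower level in HET was thus measured in neurons, astrocytes, oligodendrocytes and the cluster micro, and the part of free RNA in the glial values was not tested.

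Smaller non-neuronal clusters gave wider intervals. In the deposited endothelial cluster (222 WT and 122 HET nuclei), groups 1-4 were at 54.7 CPM in WT and 52.0 CPM in HET. The interval, −1.0 to 0.79, included 0, and groups 5-8 were at 38.5 and 18.3 CPM (−2.64 to 0.24). Both labels called 161 WT and 48 HET of these nuclei endothelial. Those held 55.0 and 36.2 CPM of groups 1-4 (−0.60, −2.33 to 0.79). In fibroblasts, groups 5-8 made 19 UMIs in WT and 4 in HET (−2.11, −4.13 to −0.53). In the ependymal cluster epend.1, they made 19 UMIs in 129 WT nuclei and 0 in 45 HET nuclei, while groups 1-4 made 49 and 14 (−0.90, −1.88 to −0.02). No non-neuronal cluster with a value had more Hox RNA of either band in HET.

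In neuronal nuclei, the genes listed for the midbrain and first rhombomere were mostly higher in HET. Of 8 listed genes of the midbrain and first rhombomere, 7 were counted and 6 had at least 20 UMIs in neuronal nuclei, 5 of them higher and 1 lower in HET, with a median log2 ratio of 1.01. Among all 21155 genes with as many UMIs, 8993 were higher in HET. By 1.5-fold, 4 of the 6 were higher and 1 was lower, where 11.2% and 14.3% of all genes were. Their sum was 4.84 CPM (4.30 to 5.43) in WT and 9.52 CPM (8.71 to 10.4) in HET. *Pax5*, a factor of the midbrain and hindbrain border, gave 148 and 249 UMIs (0.90, 0.61 to 1.21), and *Pax7*, which marks the dorsal midbrain, gave 7 and 68 (3.43, 2.31 to 4.80). *En1*, a border factor, gave 78 and 84 (0.26, −0.20 to 0.72), and *Tal2*, of midbrain GABAergic neurons, gave 27 and 11 (−1.14, −2.30 to −0.08). *En2* (7 and 55 UMIs, 3.13) and *Otx2* (17 and 33 UMIs, 1.11) were singled out after their values were seen, and 20 of the 33 HET UMIs of *Otx2* lay in neuron.5. *En2* is also expressed by cerebellar granule cells, whose 9 listed markers were all higher in HET and summed to 32.7 CPM in WT and 72.7 CPM in HET neuronal nuclei. In non-neuronal nuclei the sum of the genes of the midbrain and first rhombomere was instead lower in HET, at 19.6 CPM in WT and 9.38 CPM in HET. There *Otx2* gave 135 and 17 UMIs, nearly all of the WT ones in epend.2, while *En2* (54 and 63 UMIs) and *Pax5* (14 and 14 UMIs) had intervals that included 0.

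In subclusters, the summed genes of the midbrain and first rhombomere were higher in HET in 9 of 13, with intervals above 0 in 3. These were subclusters 0 (3.54 and 11.0 CPM), 3 (8.77 and 17.2 CPM) and 10 (5.88 and 18.7 CPM), all of neuron.1. In HET, 29.3% of the 352 nuclei with a UMI of these genes also held a UMI of Hox groups 1-4, against 45.3% of the others. In WT the shares were 62.7% of 236 nuclei and 61.1%. Thinned, they were 3.84% against 8.79% in HET and 16.6% against 15.1% in WT. In HET the interval of the deposited share, 24.6% to 34.3%, lay below the share of the other nuclei, and in WT the interval, 56.2% to 68.9%, included it. In WT these genes thus did not set apart nuclei without Hox RNA, and their level is no measure of tissue in front of the Hox domains.

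Cofactors of Hox proteins gave values on both sides of 0. Of 9 genes of the TALE family, whose proteins bind DNA with Hox proteins, 5 were higher and 4 lower in HET, with a median of 0.06. Levels in WT and HET were 387 and 377 CPM for *Meis2* (−0.04) and 262 and 251 CPM for *Pbx3* (−0.06). *Pbx2* was lowest at −0.59. The median gene with at least 200 UMIs stood at −0.09, so *Meis2* and *Pbx3* lay below 0 but above that median.

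Upstream regulators gave 9 genes of 14 listed with at least 20 UMIs, 5 higher and 4 lower, with a median of 0.03. The retinoic acid receptor genes *Rarb*, *Rarg* and *Rara*, through which retinoic acid acts on Hox genes in the embryo, stood at 0.19, −0.42 and 0.03. *Egr2*, a factor of the third and the fifth rhombomere, was highest at 0.67 (−0.18 to 1.55), and *Gbx2*, of the anterior hindbrain, lowest at −1.24 (−2.62 to −0.01). Of 16 Polycomb and Trithorax genes, whose products hold Hox genes off or on, 13 were lower and 3 higher, with a median of −0.26, where 57.5% of all 21155 genes were lower. By 1.5-fold, 4 of the 16 (25%) were lower, against 14.3% of all genes. *Kmt2a*, an activator of Hox genes, stood at −0.08, close to the all-gene median, while *Ring1* stood at −0.76, *Jarid2* at 0.16 and *Kdm6a* at 0.32. None of the 3 lists had a median past 1.5-fold.

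Non-coding transcripts of the Hox clusters were lower in HET in 6 of 7 cases, with a median of −0.39, where 57.5% of all genes were lower. By 1.5-fold, 3 of the 7 were lower, against 14.3% of all genes. *Hoxd3os1* gave 165 UMIs in WT and 47 in HET (−1.66, −2.16 to −1.18), and *Hotairm1*, of the *Hoxa* cluster, gave 554 and 567 (0.19, 0.02 to 0.36). *Hotairm1* was the only one of the 7 above 0. Without knowledge of the strand setting, reads of these and of the coding genes across from them may be shared.

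The make-up of the neuronal nuclei also differed between the libraries. The cluster neuron.5, granule-like by its markers at 1501 CPM in WT and 1489 CPM in HET, held 42 WT and 332 HET nuclei, and neuron.6 held 120 and 5. Choroid plexus markers summed to 261 CPM in WT and 68.8 CPM in HET neuronal nuclei, ependymal markers to 36.3 and 21.5 CPM, and endothelial markers to 16.7 and 9.14 CPM. Oligodendrocyte markers stood at 384 and 472 CPM, microglial at 133 and 170, astrocyte at 72.7 and 65.6, fibroblast at 6.14 and 5.95 and serotonergic at 41.4 and 54.5 CPM. Each of these lists holds 4 markers. HET was lower for 3 choroid plexus, 3 ependymal, 4 endothelial and 3 astrocyte markers, and higher for all 4 oligodendrocyte markers. The microglial, fibroblast and serotonergic lists each had 2 markers higher and 2 lower, so a sum need not follow its members. Of the forebrain list, 7 of 9 genes were counted and summed to 6.22 and 8.24 CPM, led by *Neurod6* (159 and 228 UMIs, 0.67). Without neuron.5 the log2 ratios of Hox groups 1-4 and 5-8 were −0.71 and −1.34, and with equal weights for the subclusters they were −0.69 and −1.14. Beyond these values, the part of cell make-up in the Hox difference was not tested.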

How the data were processed

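snRNA-seq libraries of 1 WT and 1 HET brainstem were made by the authors with 10x Chromium 3′ chemistry (version 3.1). Per the methods and labels, reads were aligned with Cell Ranger, whose version is not given in the sources used here, to mm10, and filtered in Seurat 4.1, per the submitters' processing notes. The authors deposited raw UMI counts per gene and nucleus without normalization, cluster and subcluster names, a second reference label, and a doublet score from a caller that is not named; nuclei called doublets had been removed by the authors before deposit, and no caller was run again. Strand use in counting is not given in the sources used here.

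From the deposited counts, UMIs were added up within each library, cluster or subcluster and divided by their total to give CPM. Single genes needed 20 UMIs over both libraries and subclusters 30 nuclei in a library. Exact Poisson, conditional and binomial intervals (95%) cover counting error only, since UMIs of 1 nucleus are not independent. Shares were thinned by expectation to 1000 UMIs, below which no nucleus fell, and to 2000 UMIs. No test between genotypes was possible. The calculation was run on simulated independent Poisson counts with known ratios. Those counts hold no spread between nuclei or animals, so the run checks the arithmetic and not how far the intervals hold for these data. Positions came from GENCODE vM21. Every Hox gene with enough UMIs was named, as were the most counted, largest and smallest genes of the position and regulator lists and the highest and lowest 3 subclusters. Cell type lists are given by their sums. A few members of these lists enter the sums and counts but are not reported here by name. The members and lists were chosen with earlier results of these data known. Alternatives changed scaling, filters, minimum counts, weights and thinning. Intervals came from scipy 1.17.1, sums from pandas 2.3.3 and numpy 2.4.6, and plots from matplotlib 3.10.9, under Python 3.11.15.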

Additional observations from a re-analysis of the deposited data

Results flagged for a closer look

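Some genes of the regulator and position lists had log2 ratios of opposite sign in neuronal and non-neuronal nuclei, and the difference between the sets of nuclei was not tested. *Otx2*, a midbrain and forebrain factor that choroid plexus also expresses, stood at 1.11 in neuronal and −3.22 in non-neuronal nuclei, and the deposited cluster epend.2 held 130 of its UMIs in 108 WT nuclei and 8 in 6 HET nuclei. *Cyp26b1*, which degrades retinoic acid, stood at −0.52 in neuronal and 0.22 in non-neuronal nuclei. *Meis2*, a cofactor of Hox proteins, stood at −0.0385 in neuronal and 0.12 in non-neuronal nuclei.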

How the results depend on the processing

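No log2 ratio of a Hox band, or of a Hox gene that was lower in HET, changed sign under any alternative run. In HET, the neuronal share of groups 1-4 was above the microglial one at 1000 UMIs but not at 2000 UMIs. In neuronal nuclei, the log2 ratio of groups 1-4 (−0.73) became −0.63 when the median of genes with at least 200 UMIs was set to 0, −0.78 without the 5% of nuclei with the highest doublet scores, −0.79 without subcluster 1, and −0.85 as the mean over nuclei of CPM. That of groups 5-8 (−1.35) became −1.14 with equal subcluster weights. Over all nuclei, centring moved groups 1-4 from −0.75 to −0.64 and groups 5-8 from −1.37 to −1.27. Every other value of the bands, the count past 1.5-fold and the median moved within its counting error or within 1.5 times the count, and the count past 1.5-fold ran from 13 of 17 at a minimum of 50 UMIs to 19 of 21 for the mean over nuclei. Of 209 single-gene values, 203 stayed within their interval and 6 moved. Only subclusters with 30 nuclei in both libraries, and only members free of exon overlap on the same strand, were alternatives chosen after seeing the data. Leaving out a library was not possible with 1 per genotype. No paired analysis was possible because the groups share only 1 replicate number and have 1 library each. Depth limits groups 9-13, *Hoxa6* and *Hoxb1*, whose intervals are wide.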
